A study of Mus musculus with 55 samples.

Results

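H3K27ac was called over 27983 regions of untreated wild type mouse liver, and 6241 of these regions (22.3%, 95% Clopper-Pearson interval 21.8 to 22.8) shared no base pair with the 27752 regions called in liver labelled Setd8-LKO. These 6241 regions, called lost peaks below, lay mostly in introns and between genes, were weaker and shorter than the 21742 kept ones, and were most numerous at single genes such as Ghr, Cmah, Nudt7 and Alb. Absence from the second list is what chose them, so the H3K27ac values are given as a description and without a test. The 2 lists came from 3 libraries each, as 1 list per condition, and no spread between replicates can be given for a single peak.

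The study removed Setd8, the methyltransferase for H4K20 monomethylation (gene Kmt5a), from hepatocytes with a Cre recombinase driven by the albumin promoter (Setd8 lox/lox AlbCre, called Setd8-LKO). Other liver cells keep the gene. Mice were male and 45 to 50 days old, and TCPOBOP, an agonist of the nuclear receptor CAR, was given at 3 mg/kg 24 h before collection. The groups used here were untreated wild type and Setd8-LKO + TCPOBOP, with 3 and 3 libraries for H3K27ac, 3 and 5 for ATAC-seq, 4 and 2 for CTCF, 3 and 2 for Smc3, 4 and 4 for Lamin A/C, 2 and 2 for H4K20me3 and 5 and 4 for RNA-seq. The 4 wild type Lamin A/C libraries carry the names of only 2 wild type livers, so that they may not be 4 animals. RNA-seq was also done on 5 livers of wild type + TCPOBOP, a group that has no chromatin assay. Genotype and TCPOBOP therefore change together in every comparison of peaks and cannot be told apart. The labels call the controls untreated, whereas other descriptions of the study mention corn oil or DMSO for them. For Kmt5a (ENSMUSG00000049327), normalized counts were 613, 567, 761, 563 and 715 in untreated wild type but 1341, 1465, 1338 and 1313 under the Setd8-LKO label. RNA of the deleted gene was thus higher, and without overlap, where the enzyme should be missing (log2 fold change 1.08 ± 0.14, standard error, adjusted p = 0.000179, edgeR, and 0.27 with DESeq2's size factors, which did not pass). By immunostaining of liver sections, the study reported loss of H4K20 monomethylation in Setd8-LKO hepatocytes after TCPOBOP, which is not a measurement of these libraries. Whether reads came from the deleted exon cannot be seen in gene-level counts, and all directions below rest on the labels. Alb, the transcript that defines hepatocytes, had between 302416 and 1230910 normalized counts in these 9 libraries.

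Acetylation of lysine 27 on histone H3 marks active promoters and enhancers, the distal elements at which tissue-specific transcription factors bind. In hepatocytes such elements are bound by FOXA, HNF4A, C/EBP and HNF1 factors, and in male mice many are driven by pulses of growth hormone through STAT5. ATAC-seq reads the accessible DNA inside these elements. CTCF is a sequence-specific factor that anchors chromatin loops, and Smc3 is a subunit of the cohesin ring.

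The sequences below are windows of 201 bases centred on the middle of a wild type ATAC region, since the ATAC lists hold no summit position. They lie at lost peaks whose ATAC peak was also absent from the Setd8-LKO list. They are shown because they are accessible sites that lost both marks next to genes whose RNA was lower. The genes were chosen after the values were seen. Where a gene had several such sites outside exons, the one with the most kinds of word was taken, AP-1 not counted. Fold enrichment decided ties. The words found were thus part of the choice and say nothing about enrichment. Bases are those of GRCm38, 5' to 3'. Capitals mark matches to the words TGTTTAC (FOXA), TTGCNNAA (C/EBP), CAAAGTCCA (HNF4A), TTCNNNGAA (STAT5) and TGANTCA (AP-1) on either strand.
Ghr, chr15:3608172-3608372, plus strand: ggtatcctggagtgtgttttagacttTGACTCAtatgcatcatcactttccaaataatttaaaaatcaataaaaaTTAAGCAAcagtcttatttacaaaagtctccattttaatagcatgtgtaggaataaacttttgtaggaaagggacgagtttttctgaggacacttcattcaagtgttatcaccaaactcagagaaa
Slco1a1, chr6:141947759-141947959, plus strand: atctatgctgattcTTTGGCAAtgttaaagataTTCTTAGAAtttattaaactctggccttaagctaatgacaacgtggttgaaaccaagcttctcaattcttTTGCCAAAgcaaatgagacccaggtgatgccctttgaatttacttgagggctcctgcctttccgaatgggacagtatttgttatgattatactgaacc
Alb, chr5:90457308-90457508, plus strand: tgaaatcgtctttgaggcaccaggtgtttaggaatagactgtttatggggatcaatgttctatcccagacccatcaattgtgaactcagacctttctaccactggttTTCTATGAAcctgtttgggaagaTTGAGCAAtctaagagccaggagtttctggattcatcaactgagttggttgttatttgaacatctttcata
Nudt7, chr8:114117497-114117697, plus strand: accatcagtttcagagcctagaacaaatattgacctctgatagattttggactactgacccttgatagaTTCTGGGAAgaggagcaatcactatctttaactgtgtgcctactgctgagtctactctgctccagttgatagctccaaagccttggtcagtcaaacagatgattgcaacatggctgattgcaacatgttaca
Acaca, chr11:84146203-84146403, plus strand: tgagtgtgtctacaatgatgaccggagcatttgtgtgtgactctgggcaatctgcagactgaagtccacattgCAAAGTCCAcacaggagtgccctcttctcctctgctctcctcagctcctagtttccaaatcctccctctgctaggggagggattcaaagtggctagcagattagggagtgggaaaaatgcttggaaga
Ces1f, chr8:93252575-93252775, plus strand: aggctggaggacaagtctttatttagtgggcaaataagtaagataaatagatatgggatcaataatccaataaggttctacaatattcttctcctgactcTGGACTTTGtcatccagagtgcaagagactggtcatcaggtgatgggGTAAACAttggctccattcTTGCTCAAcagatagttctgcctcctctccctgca
Hsd3b5, chr3:98645524-98645724, plus strand: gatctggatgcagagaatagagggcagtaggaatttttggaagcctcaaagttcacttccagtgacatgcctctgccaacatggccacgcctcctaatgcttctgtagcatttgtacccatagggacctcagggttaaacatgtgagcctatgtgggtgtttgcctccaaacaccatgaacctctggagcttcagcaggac
Distances here are those of the summit of the lost H3K27ac peak that the window belongs to, which can lie outside the window, from the nearest transcript start of the gene (negative is upstream). The Ghr window came from an intergenic peak at -25051 bp and held an AP-1 and a C/EBP word. The Slco1a1 window came from a peak at -1079 bp and held 2 C/EBP words and the STAT5 word TTCTTAGAA. The Alb window, from a peak at -3713 bp, held STAT5 and C/EBP words, the Nudt7 window, from a peak at -16255 bp, a STAT5 word, and the Acaca window, from a peak in an intron at 17129 bp, an HNF4A word. The Ces1f window, from a peak at 5550 bp, held FOXA, C/EBP and HNF4A words together. No listed word was found in the Hsd3b5 window, which says only that these letters are not in it. The window of an 8th gene chosen in the same way, Dgat2, is not printed and held no listed word either.

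A lost peak had a median fold enrichment over background of 7.67 in the wild type list, against 14.9 for kept peaks, and a median length of 300 bp against 610 bp. The share lost fell with the significance of the wild type peak, from 59.7% of peaks with a -log10 p of 13 to 20 to 51.3%, 32.1%, 12.2% and 0.46% in the ranges of 20 to 30, 30 to 50, 50 to 100 and 100 or more. Lost peaks thus had a median -log10 p of 27.8, against 85.9 for kept peaks. Only 629 lost peaks had a -log10 p of at least 50. At the edge of the rule, 1 lost peak touched a Setd8-LKO peak without sharing a base, 1 kept peak shared a single base, and 130 lost peaks (2.08%) had a Setd8-LKO peak within 100 bp. The median gap to the nearest Setd8-LKO peak was 3026 bp, and 44.0% of lost peaks had one within 2000 bp.

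Most lost peaks were distal. Of the 6241, 3138 (50.3%) lay in introns, 1381 (22.1%) between genes, 362 (5.80%) in exons and 1360 (21.8%) at promoters. A promoter peak is one with any base within 1000 bp of any annotated transcript start, whereas the distances given here run from the summit to the nearest start of the linked gene and can be longer. Of the kept peaks, 66.1% lay at promoters and 17.7% in introns. In all, 4881 of 12244 distal peaks were lost (39.9%, interval 39.0 to 40.7) and 1360 of 15739 promoter peaks (8.64%, interval 8.21 to 9.09). Promoter peaks were also stronger, and within a range of significance the difference between places was smaller. For -log10 p of 30 to 50, 37.5% of distal and 22.1% of promoter peaks were lost, and for 13 to 20, 66.1% and 40.8%. Intervals of this kind cover counting error only. The lost share per chromosome ranged from 17.9% on chromosome 17 to 27.9% on chromosome 13 among the autosomes and X, and chromosome Y held 3 peaks, of which 2 were lost.

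The lost peaks with the highest fold enrichment were found at Trim30d (40.2-fold, with its summit at 5738 bp from the Trim30d start), Ttc39c, Cyp2c23, Dgat2, Acvr2b, Tcf3, Pttg1, Larp4b, Lama3 and Derl2 (21.5-fold). Dgat2 encodes the enzyme of the last step of triglyceride synthesis. Its lost peak (chr7:99155635-99156394, intron, 760 bp) had a 26.6-fold enrichment and overlapped an ATAC peak that was also lost. The Acvr2b peak (chr9:119408056-119408474, 24.8-fold) lost its ATAC peak while CTCF and Smc3 peaks were called there in the Setd8-LKO list alone. The 5 longest were at Slco1a1, an organic anion transporter (3066 bp, chr6:141944448-141947513), Adipor2, an adiponectin receptor (2669 bp), Hsd3b5, a male-specific steroid dehydrogenase (2594 bp), Cmah, which makes N-glycolylneuraminic acid (2307 bp), and Sult2a8, a bile acid sulfotransferase (2283 bp). All 5 of these genes had lower RNA in the libraries labelled Setd8-LKO. The lost peak given to Hsd3b5 (chr3:98643734-98646327) lay at -14969 bp from its start in GENCODE M21. Other Hsd3b genes, which are near-identical copies, lie around it, so that both this link and the counts there are uncertain.

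Accessibility was an independent readout, since the rule did not use it. A wild type ATAC peak overlapped 1585 of the 6241 lost peaks (25.4%, interval 24.3 to 26.5), against 53.5% of kept peaks. Of these 1585, the ATAC peak was absent from the Setd8-LKO list at 697 (44.0%, interval 41.5 to 46.5), while it was absent at 2439 of the 11623 kept peaks with a wild type ATAC peak (interval 20.2% to 21.7%). The 2 ATAC lists held 27307 and 23386 regions. Because lost peaks were weak and distal, distal peaks were also compared within ranges of H3K27ac significance. The ATAC peak was absent at 52.4%, 48.2%, 45.1% and 44.8% of lost distal peaks in the ranges of -log10 p of 13 to 20, 20 to 30, 30 to 50 and 50 to 100, and at 31.9%, 28.7%, 25.7% and 22.7% of kept ones. Lost peaks stood above kept peaks in each of these ranges, although the intervals overlapped at 13 to 20 (42.4 to 62.2 and 21.2 to 44.2). At promoters the shares were 50.0%, 40.7%, 35.2% and 25.6% of lost and 25.8%, 22.2%, 24.8% and 19.3% of kept peaks in the same ranges, and the intervals were separate at 20 to 30 alone.

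**Figure D1:**
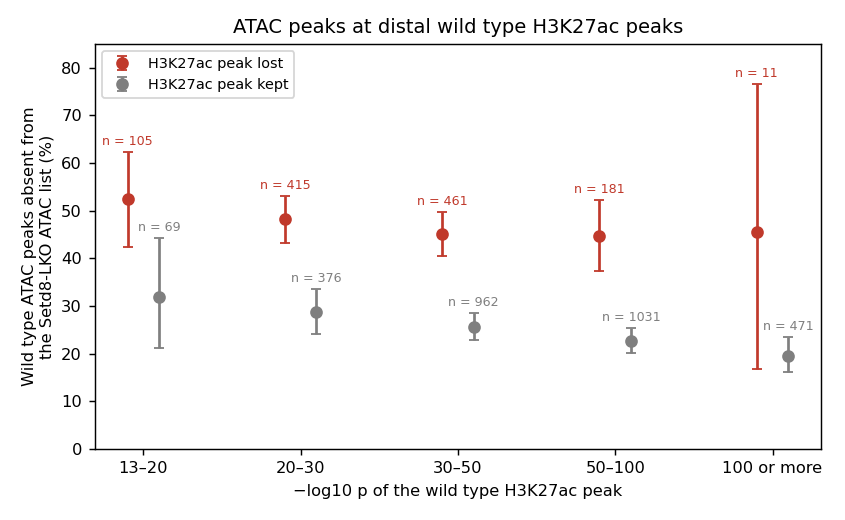
Share (%) of wild type ATAC peaks at distal wild type H3K27ac peaks that were absent from the Setd8-LKO ATAC list, by the -log10 p of the H3K27ac peak. Red points are lost and grey points kept H3K27ac peaks, bars are 95% Clopper-Pearson intervals and n is the number of H3K27ac peaks, and lost peaks stand at 44.8% to 52.4% where kept ones stand at 19.5% to 31.9%, the 11 lost peaks of 100 or more having an interval too wide to place them.

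At the other 888 lost peaks the ATAC peak was kept. There the fold enrichment of ATAC changed little, with a median log2 ratio of Setd8-LKO to wild type of -0.08 (quartiles -0.18 and 0.04), lower at 596 (67.1%). At 9184 kept peaks the median was -0.10, lower at 73.5%. Where accessibility was called in both conditions, the median shift was thus no larger at lost than at kept H3K27ac peaks. An ATAC peak of the Setd8-LKO list alone was rare at lost and kept peaks, at 94 (1.51%) and 517 (2.38%).

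CTCF and cohesin were seldom present at lost peaks in either condition. A CTCF peak was called at 35 of them in wild type and at 189 (3.03%, interval 2.62 to 3.48) in Setd8-LKO, against 1107 (5.09%) and 8437 (38.8%) of kept peaks. The CTCF lists held 5838 and 20905 regions, and a CTCF peak of the Setd8-LKO list was met far more often at a kept element. The same held among distal peaks of similar significance, where a Setd8-LKO CTCF peak overlapped 0.64%, 1.71%, 3.01% and 4.85% of lost peaks and 5.22%, 7.41%, 6.60% and 9.20% of kept peaks, in the ranges from 13 to 100. Smc3 was found at 170 lost peaks (2.72%) in wild type and at 342 (5.48%) in Setd8-LKO, and at 16.1% and 59.1% of kept peaks, from lists of 13045 and 21615 regions. Where a lost peak had carried Smc3 in wild type, Smc3 was absent from the Setd8-LKO list at 99 of 170 (58.2%, interval 50.4 to 65.7). At kept peaks this was so at 352 of 3494 (10.1%, interval 9.10 to 11.1). Among distal peaks alone the shares were 89 of 131 (67.9%, interval 59.2 to 75.8) and 232 of 554 (41.9%, interval 37.7 to 46.1). Between distal peaks of similar significance the difference was smaller, and it could not be told from counting error with so few peaks. Smc3 was absent at 86.7% (13 of 15), 68.3% (28 of 41), 72.0% (36 of 50) and 47.8% (11 of 23) of lost peaks in the ranges from 13 to 100, and at 66.7% (10 of 15), 66.7% (36 of 54), 62.8% (76 of 121) and 50.0% (88 of 176) of kept ones, with overlapping intervals in each range. At 100 or more it was absent at 22 of 188 kept peaks, where only 2 lost peaks had carried Smc3.

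Lost peaks did not lie in lamina-associated or H4K20me3 chromatin to any large extent. Lamin A/C islands held 42 of them (0.67%) in wild type and 28 (0.45%) in Setd8-LKO, and 434 and 231 of the kept peaks. H4K20me3 islands held 50 (0.80%, interval 0.60 to 1.05) in wild type and 175 (2.80%, interval 2.41 to 3.24) in Setd8-LKO. For kept peaks these shares were 0.94% and 1.89% (interval 1.71 to 2.08). Thus 130 lost peaks, 2.08%, stood in an H4K20me3 island of the Setd8-LKO list alone.

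The DNA of lost peaks was poorer in CpG than that of kept peaks. The median GC content in the 201 bases around the H3K27ac summit was 47.8% at lost and 64.2% at kept peaks, with a mean of 3.08 and 13.3 CpG per window. For distal peaks the medians were 47.3% and 50.7%. Around the H3K27ac summit the word shares of lost peaks stood near those of windows moved by 2000 bp (C/EBP 6.70% and 8.13%, FOXA 2.74% and 2.82%). Windows at the middle of the ATAC region, added after the data were seen, behaved differently. In 1173 lost distal peaks with a wild type ATAC peak, the FOXA word was present in 7.33% (interval 5.91 to 8.98) against 2.64% of moved windows, C/EBP in 14.7% against 8.61%, HNF4A CAAAGTCCA in 3.32% against 0.17%, and the half-site AGGTCA of nuclear receptors, which is also part of the word CAAAGGTCA, in 23.4% against 12.9%. The shares in 2906 kept distal peaks were close to these, at 6.68%, 15.3%, 3.34% and 24.0%, with overlapping intervals.

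**Figure D2:**
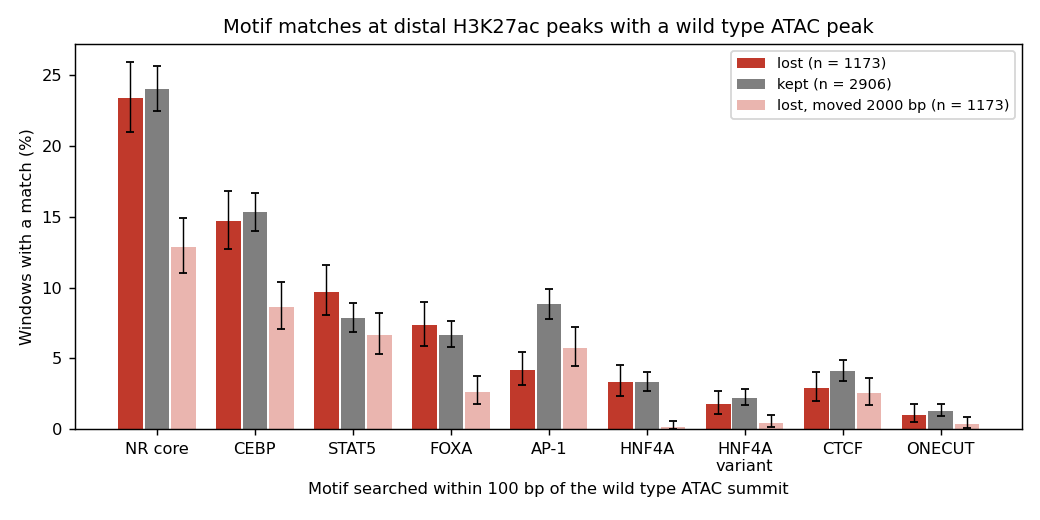
Share (%) of 201-base windows at the middle of the wild type ATAC region (labelled ATAC summit) of distal H3K27ac peaks that held each word on either strand. Red bars are lost peaks, grey bars kept peaks and pale bars the windows of lost peaks moved by 2000 bp, with 95% Clopper-Pearson intervals, and the AP-1 bar of lost peaks (4.18%) lies below that of kept peaks (8.81%) while the FOXA, C/EBP and HNF4A bars of lost and kept peaks are alike in height.

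The AP-1 word TGANTCA was the one that stood apart. It was present at 49 lost distal peaks (4.18%, interval 3.11 to 5.49) and at 256 kept ones (8.81%, interval 7.80 to 9.90), against 5.71% and 5.82% of moved windows. In the range of -log10 p from 30 to 100 the shares were 2.65% and 8.73%. AP-1 is the family of Jun and Fos factors, which respond to stress and growth signals. STAT5 (TTCNNNGAA) was present in 9.72% of lost (interval 8.08 to 11.6) and 7.85% of kept peaks (interval 6.89 to 8.88), and the CTCF consensus with at most 1 mismatch in 2.90% and 4.13%. A match is a description of the letters and not a bound site.

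At promoters the C/EBP and FOXA words were compared between groups of genes, with 1 RefSeq promoter per gene (GRCm38.p6, 250 bases before the start). Promoters on chromosomes 18 and Y were left out of all promoter word counts. A lost peak lay within 1000 bp of such a start at 666 of 26794 genes. Where the RNA of the gene was also lower, TTGCNNAA was present in 27 of 125 promoters (21.6%, interval 14.7 to 29.8) and TGTTTAC in 5.60% (interval 2.28 to 11.2). Of 762 genes with lower RNA and no lost peak at the start, 11.4% (interval 9.25 to 13.9) and 3.54% held these words. Genes with a lost peak at the start whose RNA was not lower or not listed held them in 12.4% (interval 9.73 to 15.5) and 3.88%, and all genes in 9.64% and 3.12%. The interval of the first C/EBP share overlapped that of genes whose RNA was not lower. This count per gene was added after the data were seen. When every RefSeq promoter of a gene linked to a lost promoter peak was counted instead, several to a gene, C/EBP was present in 57 of 263 promoters of genes with lower RNA (21.7%) and in 8.49% of the others. Base composition differed between these 2 groups, with a median GC content of 52.4% and 57.6%. Both of the following promoters belong to genes whose start had a lost peak and whose RNA was lower, and the capitals mark the C/EBP word. They were chosen after the values were seen.
C9 promoter, chr15:6445096-6445345, plus strand: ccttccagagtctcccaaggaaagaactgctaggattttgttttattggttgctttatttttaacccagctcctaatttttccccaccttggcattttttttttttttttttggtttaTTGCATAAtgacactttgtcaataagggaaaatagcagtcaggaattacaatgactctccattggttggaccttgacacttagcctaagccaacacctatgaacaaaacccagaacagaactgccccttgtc
Sult2a8 promoter, chr7:14446588-14446837, minus strand: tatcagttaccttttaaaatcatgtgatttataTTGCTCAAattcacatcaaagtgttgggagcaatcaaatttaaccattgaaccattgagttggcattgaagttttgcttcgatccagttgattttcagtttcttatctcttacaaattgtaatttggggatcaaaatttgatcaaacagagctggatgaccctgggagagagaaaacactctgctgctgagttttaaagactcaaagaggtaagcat
C9 encodes the last component of the complement membrane attack complex.

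For the link to genes, each peak was given to the nearest transcript start within 50 kb, which 5747 of the 6241 lost peaks had. The median distance was 4931 bp for lost and 300 bp for kept peaks. Lost peaks belonged to 2858 of the 12420 genes with a wild type peak, and 621 genes with at least 3 of them held 2928. Of the 2858 genes, 503 had lost all their peaks, 41 of them at least 3. The 10 genes with the most lost peaks were Ghr (19 of 27), Cmah (18 of 24), Mtss1 (18 of 38), Zbtb20 (18 of 25), Nudt7 (15 of 18), Mtus1 (15 of 18), Adipor2 (14 of 18), Alb (14 of 19), Lpp (14 of 22) and Aacs (13 of 15). At Ghr, Mtss1, Zbtb20, Mtus1, Adipor2, Lpp and Aacs a strong peak at a transcript start was kept while weaker peaks were lost. Of the 19 lost peaks of Ghr, 4 had a wild type ATAC peak, and 1 of these was lost.

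**Figure D3:**
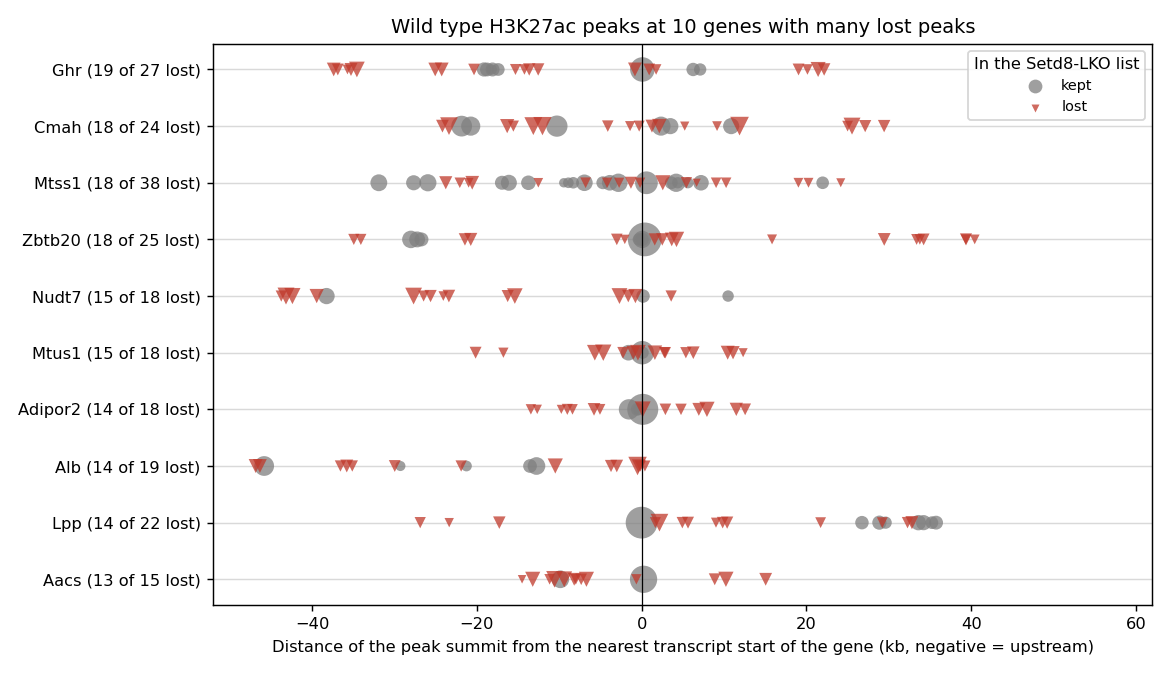
Wild type H3K27ac peaks at the 10 genes with the most lost peaks, by the distance (kb) of the summit from the nearest transcript start of the gene, negative being upstream. Grey circles are kept and red triangles lost peaks, with an area that grows with fold enrichment, and at Ghr 19 of 27 peaks are red, at negative and positive distances.

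RNA was the second independent readout. The 2 RNA tables hold only the genes that the authors selected on these libraries, 3900 between Setd8-LKO + TCPOBOP and untreated wild type and 719 between wild type + TCPOBOP and untreated wild type, so counts of changed genes start from a high level. Genes were called changed where edgeR's quasi-likelihood test gave an adjusted p under 0.05 and a log2 fold change past 1 in size. Of 3726 tested genes, 91.8% were changed, 54.6% higher and 37.2% lower. Of the 672 tested genes with a lost peak, 540 (80.4%, interval 77.1 to 83.3) were lower and 104 (15.5%) higher. Of the 1441 with wild type peaks of which none was lost, 354 (24.6%, interval 22.4 to 26.9) were lower and 992 higher. Normalized counts depend on the scaling here, since size factors that DESeq2 estimated from the listed genes moved the median log2 fold change by -0.82. All directions are relative to that shift. With these factors the table split into 834 higher and 1495 lower, genes with a lost peak into 29 higher and 554 lower, and the 1409 tested genes of which no peak was lost into 378 higher and 381 lower.

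The share of lower genes grew with the number of lost peaks. It was 69.6% of 309 genes with 1 lost peak, 83.5% of 139 with 2, 92.7% of 124 with 3 or 4 (interval 86.7 to 96.6) and 94.0% of 100 with 5 or more (interval 87.4 to 97.8), and the median log2 fold change was -1.24, -1.59, -1.58 and -1.81. Genes with many peaks can lose more of them, so genes with at least 5 wild type peaks were set side by side. Of these, 18 of 49 were lower when none was lost (36.7%, interval 23.4 to 51.7), 96 of 117 with 1 or 2 lost (82.1%) and 179 of 192 with 3 or more lost (93.2%). All 19 tested genes that had at least 3 peaks and lost every one were lower. Of all 116 tested genes that lost every peak, whatever their number of peaks, 72 were lower (62.1%, interval 52.6 to 70.9) and 33 higher. That share lay below the 69.6% of genes with 1 lost peak. Over the 674 tested genes with at least 3 wild type peaks, Spearman's rho between the share of peaks lost and the log2 fold change was -0.47. This is across genes, which are not independent replicates.

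**Figure D4:**
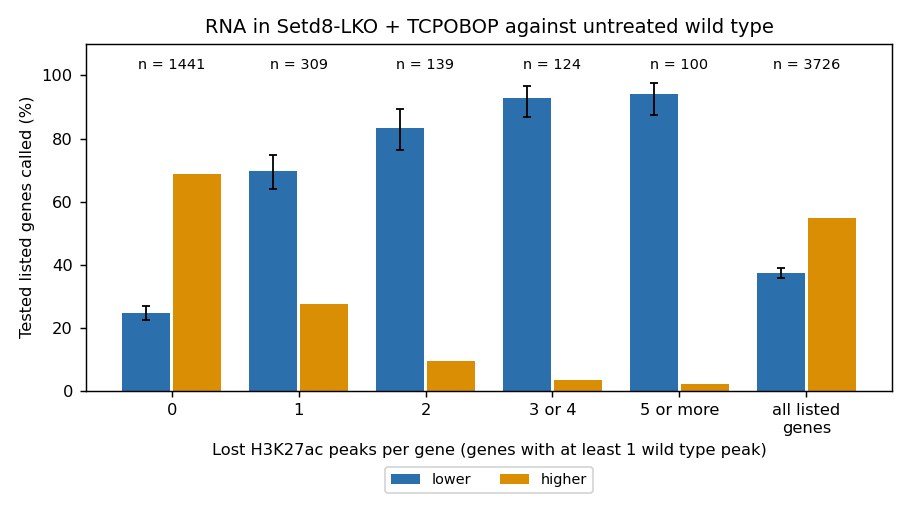
Share (%) of tested listed genes that were lower (blue) or higher (orange) in Setd8-LKO + TCPOBOP than in untreated wild type, by the number of lost H3K27ac peaks of the gene, with all listed genes at the right. Bars on the blue columns are 95% Clopper-Pearson intervals and n is the number of tested genes, and the blue columns go from 24.6% without a lost peak to 94.0% with 5 or more.

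The RNA libraries carried 2 run names, here A and B, with 1 Setd8-LKO and 3 untreated wild type libraries in A and 3 and 2 in B. Of the genes with a lost peak that could be tested within a run, 563 had a log2 fold change below 0 and 116 above 0 within run A. Within run B these were 560 and 120 genes. By place and ATAC state of the lost peak the shares lay closer together. Lower RNA was found for 240 of 293 genes linked to a lost promoter peak (81.9%) and 300 of 379 with distal lost peaks alone (79.2%). It was found for 118 of 148 genes with a lost peak whose ATAC peak was lost too (79.7%), for 99 of 135 where the ATAC peak was kept (73.3%), and for 323 of 389 where no lost peak had a wild type ATAC peak (83.0%). Genes that also gained an H3K27ac peak were lower in 125 of 172 cases (72.7%, interval 65.4 to 79.2) and those without a gained peak in 415 of 500 (83.0%, interval 79.4 to 86.2).

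In wild type mice given TCPOBOP, 523 of 679 tested genes changed (77.0%), 57.6% higher and 19.4% lower. This comparison uses the same 5 untreated livers, so its values are set beside the others without a test between them. Of its 171 tested genes with a lost peak, 62 were lower (36.3%, interval 29.1 to 43.9) and 68 higher. With 1 lost peak, 17 of 77 were lower and 37 higher, and with 2 lost peaks 12 of 40 were lower and 21 higher. Of the 54 with at least 3 lost peaks, 33 were lower (61.1%, interval 46.9 to 74.1) and 10 higher. Without a lost peak, 32 of 259 were lower (12.4%, interval 8.61 to 17.0) and 169 higher. Here other scalings moved the median of the table by -1.25 (TMM) and -1.17 (DESeq2 size factors), and higher calls went from 391 to 69 and 74 while lower calls went from 132 to 206 and 206.

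The share of lost peaks differed between groups of genes, and it was highest for growth hormone action among the lists with at least 25 wild type peaks. Over all wild type peaks 22.3% were lost. Of all tested genes 37.2% were lower and 54.6% higher, and each list below is to be set beside these shares. The list of growth hormone pathway and male-biased liver genes had 121 of its 206 wild type peaks lost (58.7%), and 31 of its 32 tested members, of 34, were lower, with a median log2 fold change of -2.85 against 1.16 over all tested genes. Ghr, the growth hormone receptor (ENSMUSG00000055737, chr15:3317760-3583492, minus strand), went from 11016, 11312, 7907, 7317 and 8860 normalized counts in untreated wild type to 1712, 1592, 1936 and 1974 under the Setd8-LKO label. All 4 were below all 5, and the log2 fold change was -2.36 ± 0.19 (adjusted p = 1.08e-05, edgeR). Within run A alone it was -2.02, and within run B -2.68. Igf1, the growth factor that the liver secretes in response to the hormone, lost 12 of 21 peaks. Its counts were 2962, 2648, 3300 and 3225 against 8505, 9857, 8725, 6388 and 9045, a log2 fold change of -1.49 ± 0.17. The groups did not overlap. Egfr, the receptor of epidermal growth factor (10 of 15 lost, -3.64), and Serpina1e (8 of 9 lost, -3.48), a serine protease inhibitor, were lower as well.

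Nudt7, a peroxisomal hydrolase of coenzyme A, lost 15 of 18 peaks and its ATAC peak at 4 of them. Its counts were 578, 482, 597 and 636 in Setd8-LKO + TCPOBOP, 2481, 2608, 2441, 4927 and 5027 in wild type + TCPOBOP, and 19453, 20546, 16929, 17027 and 10760 in untreated wild type. The 3 groups were separate, with log2 fold changes against untreated of -4.89 ± 0.25 (adjusted p = 9.65e-07) and -2.28 ± 0.28 (adjusted p = 0.000857, both edgeR). Hsd3b5 had the largest fitted fall of any gene with a lost peak over all libraries. Clec2h followed with -9.69 ± 1.03, but its counts reached 0, and within run A its fall was the larger one (-11.31 against -10.55). The order of these 2 genes is thus not settled. Hsd3b5 RNA was nearly absent from the libraries labelled Setd8-LKO, with 5, 2, 5 and 2 counts. It had 6989, 8072, 2739, 2914 and 2579 in untreated wild type and 245, 126, 149, 939 and 502 in wild type + TCPOBOP. The log2 fold changes were -10.32 ± 0.63 and -3.57 ± 0.62. Slco1a1, whose longest lost peak is given above, went from 9968, 9746, 7656, 6760 and 9028 to 385, 337, 1045 and 286, a log2 fold change of -4.07. The groups lay far apart. Mup20, a major urinary protein, lost 10 of 15 peaks and did not pass, with counts of 33796, 28678, 151990 and 81636 against 162817 to 192233 (-1.23 ± 0.45, adjusted p = 0.127, edgeR). The libraries labelled Setd8-LKO spread widely here, and reads of the Mup genes can be split among near-identical copies.

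Lipid synthesis came next, with 71 of 140 wild type peaks lost (50.7%, against 22.3% of all). Of its 23 tested members 22 were lower and 1 higher, where 37.2% of all tested genes were lower. Acaca, the acetyl-CoA carboxylase that makes malonyl-CoA, lost 11 of 12 peaks. It fell from 2404, 2195, 2113, 2679 and 2175 counts in untreated wild type to 808, 970, 809 and 784 (-1.46 ± 0.14, adjusted p = 3.01e-05, edgeR), with no overlap. Fasn, fatty acid synthase, lost 6 of 7 peaks and had 1824, 2578, 1984 and 2198 counts against 13072, 11948, 6403, 12980 and 8463 (-2.30 ± 0.25). Every library of one group was again below the other. Elovl6 (11 of 16 lost, -1.18), Fads2 (5 of 7 lost, -1.58), which elongate and desaturate fatty acids, and Srebf1 (5 of 9 lost, -3.19), the transcription factor that drives the pathway, were also lower. Aacs, acetoacetyl-CoA synthetase, had 172, 213, 190 and 161 counts against 3853, 2840, 559, 1617 and 638. The groups did not overlap although untreated livers differed among themselves, libraries 3 and 5 being the lowest (-3.37 ± 0.57, adjusted p = 0.00126, edgeR).

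**Figure D5:**
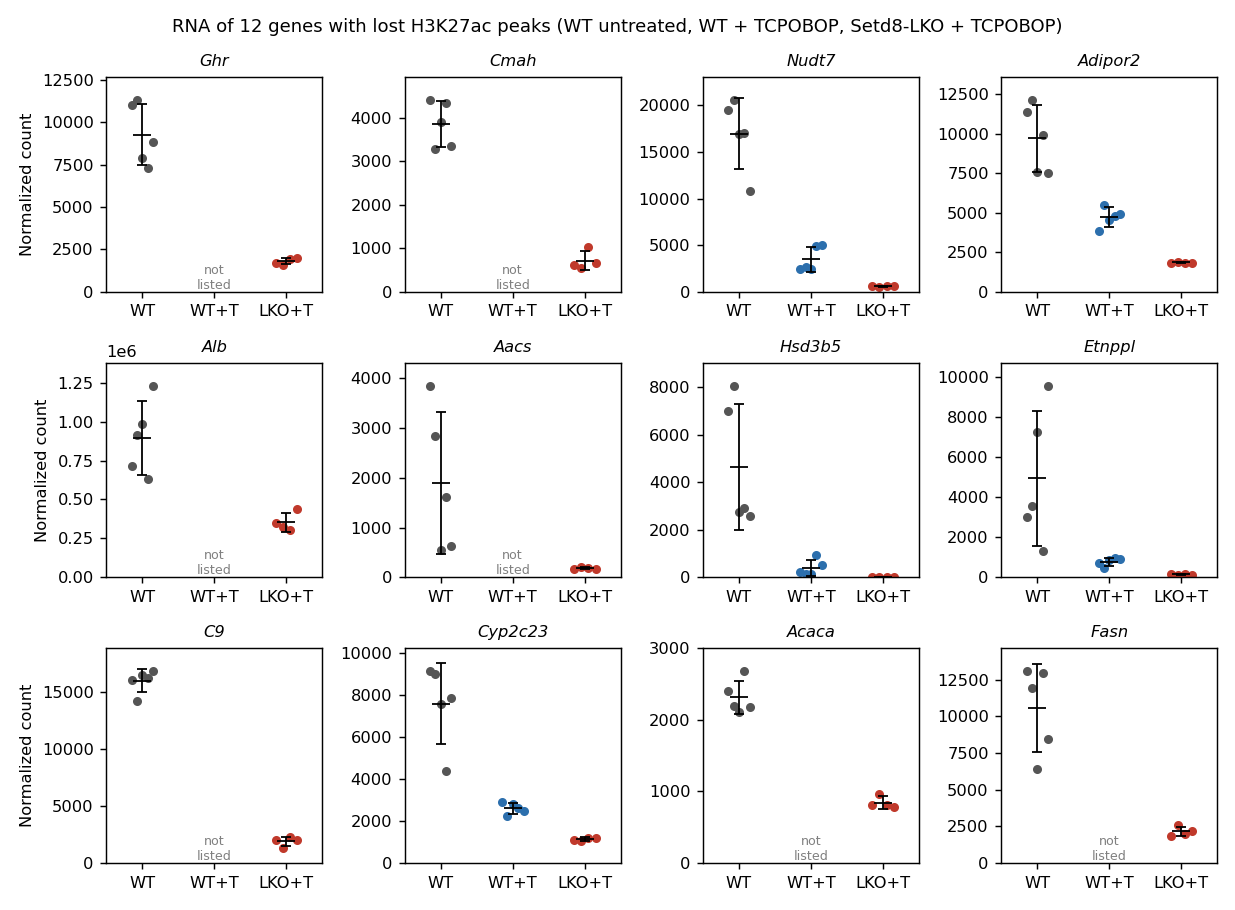
Normalized counts of 12 genes with lost H3K27ac peaks in untreated wild type (WT, grey), wild type + TCPOBOP (WT+T, blue) and Setd8-LKO + TCPOBOP (LKO+T, red), 1 point per library with mean ± SD, each panel with its own linear axis from 0. In every panel the 4 red points lie below the 5 grey ones, and 5 panels also show blue points, which lie between them, while the other genes are not in the wild type + TCPOBOP table.

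Amino acid and bile acid metabolism lost elements in smaller shares. Urea cycle and amino acid genes lost 61 of 159 peaks (38.4%) with 23 of 24 tested members lower and none higher. Bile acid genes lost 50 of 133 (37.6%) with 9 of 10 lower and 1 higher. Over all, 22.3% of wild type peaks were lost and 37.2% of tested genes were lower. Gls2, liver glutaminase, lost 6 of 7 peaks. Its counts were 875, 676, 667 and 1477 in Setd8-LKO + TCPOBOP, 4572, 3839, 4013, 4004 and 3584 in wild type + TCPOBOP and 7715, 9034, 13777, 6093 and 14592 in untreated wild type, in 3 groups that did not overlap (-3.47 ± 0.37 and -1.36 ± 0.24). Got1, an aspartate aminotransferase that lost 7 of 9 peaks, differed in that both TCPOBOP groups overlapped. It had 2044, 1026, 1257 and 1033 counts in Setd8-LKO + TCPOBOP, 1141, 1059, 1106, 924 and 1018 in wild type + TCPOBOP, and 2386, 2474, 9259, 3106 and 9522 in untreated wild type. The log2 fold change in Setd8-LKO was -1.997 ± 0.49 (adjusted p = 0.0146, edgeR), with -2.82 within run A and -0.75 within run B. It did not pass with run as a term (-1.45) or without Setd8-LKO library 2 or 4 (-1.89 in both cases), and that in wild type + TCPOBOP was -2.35 ± 0.42. Untreated libraries 3 and 5, both of run A, stood highest for Gls2 and Got1. Without library 3 or library 5 the Setd8-LKO log2 fold changes were -3.34 and -3.31 for Gls2 and -1.71 and -1.68 for Got1, and all 4 still passed. Within run B, which holds neither library, they were -3.50 and -0.75. Cyp8b1, the sterol 12-alpha-hydroxylase of bile acid synthesis, lost 7 of 9 peaks, with 359, 176, 757 and 345 counts against 3950, 6631, 4382, 5504 and 4477 (-3.61 ± 0.40). Cyp7a1, the rate-limiting enzyme, lost 7 of 8 peaks and is not in either RNA table.

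Zonated genes lost 52 of 126 peaks (41.3%, against 22.3% of all). Of 19 tested members 15 were lower and 3 higher, where 37.2% of all tested genes were lower. Lost peaks stood at periportal genes such as Cyp2f2, Gls2, Cps1 and Etnppl and at pericentral ones such as Cyp2e1 and Cyp7a1. Cyp2f2, a cytochrome P450, lost all 5 of its peaks, with 2011, 1426, 3849 and 4339 counts against 32537, 31374, 28460, 25432 and 27678 (-3.32 ± 0.34). Etnppl, a lyase of phosphoethanolamine, lost all 7. Its counts of 153, 141, 182 and 128 lay below the 702, 470, 873, 962 and 907 of wild type + TCPOBOP and the 3027, 3546, 7269, 1296 and 9577 of untreated wild type (-5.03 ± 0.57 and -2.66 ± 0.48). No group overlapped another, and untreated libraries 3 and 5 were again the highest. Hal, histidine ammonia-lyase, lost 3 of 4 peaks and changed by -4.87.

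Secreted plasma proteins had 62 of 236 peaks lost (26.3%, against 22.3% of all wild type peaks), and 19 of 20 tested members were lower and 1 higher. Alb, serum albumin (ENSMUSG00000029368, chr5:90460897-90476602, plus strand), lost 14 of 19 peaks. Its counts were 350296, 321973, 302416 and 437673 against 714846, 914210, 984219, 630727 and 1230910, without overlap (-1.34 ± 0.30, adjusted p = 0.00785, edgeR). The Cre of the knockout is itself driven by the albumin promoter. C9 lost all 6 peaks and had 1968, 1271, 2252 and 2025 counts against 16039, 14212, 16478, 16153 and 16774 (-3.08 ± 0.21). Ttr, the carrier of thyroxine, lost 6 of 10 peaks and changed by -1.60. Other genes that lost all of their peaks were Snap47 (7 of 7, -1.57), Cyp2c23 (6 of 6, -2.74) and Hsd3b2 (5 of 5, -3.88). Cyp2c23, an arachidonic acid epoxygenase, had 1106, 1026, 1204 and 1208 counts in Setd8-LKO + TCPOBOP, 2891, 2254, 2789, 2605 and 2478 in wild type + TCPOBOP and 9131, 9003, 7566, 4401 and 7849 in untreated wild type. Its groups were separate in the same order as those of Nudt7.

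Among transcription factors of the hepatocyte, 61 of 235 peaks were lost (26.0%, against 22.3% of all), spread over 27 of 35 genes, and 6 members were listed. Of these 6, 5 had lower RNA, namely Cebpa, Onecut1, Ppara, Bcl6 and Hlf. Cebpa, which encodes a C/EBP factor, lost 2 of 5 peaks and had 1438, 1257, 1711 and 2680 counts against 9070, 12061, 6507, 7458 and 6747 (-2.24 ± 0.28, adjusted p = 0.000161, edgeR). Onecut1 lost 2 of 5 peaks and changed by -2.61. Hlf, a circadian factor of the PAR bZIP family, lost 5 of 12 peaks (-1.80), and Ppara, the receptor that drives fatty acid oxidation, 4 of 24 (-1.53). Cux2, a factor of female liver, was higher (1.11, adjusted p = 0.0325, edgeR), which did not pass with DESeq2's size factors. Rxra (7 of 17 lost), Nr5a2 (5 of 17), Foxa1 (4 of 9) and Hnf4a (2 of 10) are not in the RNA tables.

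In other lists RNA was mostly higher. Of all tested genes 54.6% were higher, and 834 of 3608 with DESeq2's size factors. CAR target genes lost 24 peaks (23.5%, against 22.3% of all) and gained 68, and 23 of 24 tested members were higher and none lower, against 13 of 24 higher with DESeq2's size factors. Aldh1a1, which oxidizes retinal, lost 8 of 14 peaks but is not in the Setd8-LKO table. In wild type + TCPOBOP it had 49019, 60481, 49601, 52062 and 47549 counts against 14897, 20557, 7583, 13958 and 10580 (1.94 ± 0.25, adjusted p = 0.00103, edgeR), a difference of 0.69 with TMM and 0.77 with DESeq2's size factors, neither of which passed. Cyp2c54 lost both of its peaks and had 8246, 9146, 25961 and 13900 counts in Setd8-LKO + TCPOBOP (1.39 ± 0.46, adjusted p = 0.0716, edgeR), 44041 to 60561 in wild type + TCPOBOP and 2400 to 8783 in untreated wild type. Its reads can be shared with other Cyp2c genes. Fatty acid oxidation genes lost 16 of 85 peaks (18.8%, against 22.3% of all), with 7 of 9 tested members higher and 2 lower (5 and 2 with DESeq2's size factors). Mitotic genes lost 2 of 25 peaks, with 28 of 29 higher, and p53 target and senescence genes 3 of 47, with 14 of 15 higher, against 27 of 29 and 9 of 14 with those size factors. Cdk1, the kinase of mitotic entry, lost 1 of 3 peaks and had 459, 431, 538 and 358 counts against 14, 23, 56, 29 and 44 (3.75 ± 0.35). Pttg1, securin, was the mitotic gene that was lower (-1.14), and its lost promoter peak was among the 10 strongest.

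Genes with a lost peak whose RNA rose were fewer. The largest rises were those of Themis (4.91), Nuf2 (4.42), Cidec (4.34), Slc34a2 (3.88) and Amer2 (3.88), each with 1 lost peak. Themis had 363, 359, 18 and 246 counts under the Setd8-LKO label against 3 to 13 in untreated wild type. Its library 3 stood far below the others, so that its value and first place are uncertain. Cidec, a lipid droplet protein, lost 1 of 5 peaks and gained 3. Its counts were 1893, 1422, 2150 and 3326 against 85 to 139 in untreated wild type, with no overlap. Among genes with at least 3 lost peaks, 6 were higher, the 5 largest being Nceh1 (1.88), Mad1l1 (1.62), Camk2b (1.45), Neat1 (1.25) and Clu (1.16), and none of the 5 passed with DESeq2's size factors. The steepest falls after Hsd3b5 were seen in Clec2h, Gm31583, Sult2a8 and AC127342.1, and, among genes with at least 3 lost peaks, in C730036E19Rik (-6.41), Serpina12 (-5.97) and Sucnr1 (-5.53). The place of Serpina12 is uncertain, since its untreated counts were 1208, 1379, 60, 806 and 78. Its log2 fold change was -3.87 within run A and -7.33 within run B. Sult2a8 had 34, 34, 265 and 109 counts in Setd8-LKO + TCPOBOP, 3342, 3611, 3292, 5473 and 4488 in wild type + TCPOBOP and 15207, 15748, 9474, 10059 and 11843 in untreated wild type, 3 separate groups (-6.82 ± 0.71 and -1.63 ± 0.21). Clec2h was listed at 2, 0, 0 and 0 counts against 688, 462, 551, 52 and 345.

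The tissue was whole liver, and in bulk samples fewer cells of a type and less RNA per cell cannot be told apart. By microscopy, the study reported massive hepatocyte death in Setd8-LKO livers after TCPOBOP, with only a small part of the hepatocytes remaining. It also reported an enrichment of small mononuclear cells there, and hyperploid nuclei in most of the remaining hepatocytes. By that report the mix of cells differed between the compared livers, although it was not measured in these libraries. Markers of other cell types held few of the peaks, 2 of 2 lost for Kupffer cells (C1qc), 2 of 13 for endothelium, 2 of 7 for stellate cells, 1 of 9 for cholangiocytes and 1 of 6 for lymphocytes and neutrophils. RNA of listed Kupffer cell, stellate cell and cholangiocyte markers was mostly higher in the libraries labelled Setd8-LKO. It was higher for 5 of 5 tested Kupffer cell markers of a list of 17, 7 of 7 stellate cell markers of 14 and 9 of 11 cholangiocyte markers of 14. With DESeq2's size factors these were 3 of 5, 4 of 7 and 8 of 11. Of all tested genes, 54.6% were higher. No endothelial marker of 14 is listed. Under the Setd8-LKO label, Kupffer cell markers summed to 7581, 5784, 1847 and 3940 normalized counts, against 520 to 689 in untreated wild type. Spp1, which the cholangiocyte list also holds, was the most abundant of them. Stellate cell markers, with Dcn the most abundant, summed to 14396, 13246, 6282 and 8147 against 2438 to 3598, and cholangiocyte markers to 10613, 9449, 2766 and 6376 against 606 to 839. Of 3 tested lymphocyte and neutrophil markers 1 was lower and none higher, and they summed to 93, 92, 73 and 130 against 18 to 109. The part of these shifts, and of the reported hepatocyte death, in the lost peaks and in the lower RNA was not tested.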

How the data were processed

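Per the labels and the study's methods, the authors trimmed ChIP-seq, CUT&Tag and ATAC-seq reads with Trimmomatic 0.39 and aligned them with HISAT2 to mm10. They removed duplicates and blacklisted regions, and scaled ChIP-seq and CUT&Tag libraries down to the smallest one, a step not stated for ATAC-seq. RNA-seq reads were pre-processed with PRINSEQ and aligned with HISAT2 to mm10. The authors deposited 1 MACS2 2.2.7.1 list per condition for H3K27ac, ATAC, CTCF and Smc3, with a fold enrichment over background, a -log10 p and a peak score for each region, and SICER islands with a score for Lamin A/C and H4K20me3. Whether replicates were pooled before calling is not given in the sources used here, and read depth is not in the lists. The deposited RNA tables hold raw counts and normalized counts of the genes that the authors selected with metaseqR. Their p-value, FDR and fold change columns were not used, nor were 114 columns of transformed counts. Raw counts of listed genes summed to 5734065 to 12780869 per library in the Setd8-LKO table and 1389901 to 3706582 in the wild type + TCPOBOP table, which is not sequencing depth.

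Peaks were compared at a minimum overlap of 1 bp in Python 3.11.15 (pysam 0.24.0, pandas 2.3.3, scipy 1.17.1, numpy 2.4.6, matplotlib 3.10.9 for figures). Promoter peaks have any base within 1000 bp of any GENCODE M21 transcript start (GRCm38), and a peak belongs to the gene with the start nearest to its summit within 50000 bp. Raw counts with the authors' scaling factors were fitted in edgeR 4.0.16 (R 4.3.3, limma 3.58.1) after filterByExpr (minimum count 10, at 40000000 reads per library). Because unselected genes are not in the tables, p-values were adjusted by Benjamini-Hochberg over 21951 protein-coding genes. DESeq2 1.42.0 was an alternative. Per the study's methods, RNA libraries are biological replicates, so that p-values measure the spread between animals.

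The peaks and the 16 lists (432 genes, of which C5 and Tf were not matched) were chosen with earlier results of these data known. Genes were named as the 10 with the most lost peaks, the largest falls and rises with at least 1 and at least 3 lost peaks, genes that lost all of at least 3 peaks, the members of each list with the most lost peaks, and Kmt5a. Cebpa, Onecut1, Bcl6, Cux2, Foxa1, Hnf4a, Egfr, Serpina1e, Slco1a1, Srebf1, Hal, Cps1, Cyp2e1, Ces1f and Dgat2 were named in addition, after their values were seen.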

Additional observations from a re-analysis of the deposited data

Results flagged for a closer look

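In 9 of 128 groups of 4 or 5 libraries, 1 library stood far from the others for a named gene, where chance gives about 1 in 20. Among the libraries labelled Setd8-LKO, Adipor2 had 1910 normalized counts in library 2 against 1834 to 1844 in the others, Acaca 970 in library 2 against 784 to 809, Ppara 1063 in library 4 against 601 to 651, and Clec2h 2 in library 1 against 0. Among untreated wild type libraries, C730036E19Rik had 992 in library 4 against 397 to 549, Mad1l1 485 in library 4 against 218 to 274, C9 14212 in library 2 against 16039 to 16774, and Pttg1 423 in library 2 against 331 to 346. In wild type + TCPOBOP, Nceh1 had 1497 in library 2 against 807 to 955.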

How the results depend on the processing

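The number of lost peaks depended on what counted as shared. It was 6241 as reported, 10535 when 50% reciprocal overlap was needed, 3492 when no Setd8-LKO peak could lie within 2000 bp and 629 among wild type peaks with a -log10 p of at least 50, and 4580 to 6608 under the other definitions. The share whose ATAC peak was also lost was 33.1%, 46.5% and 38.8% under these 3 definitions, 47.3% with no Setd8-LKO peak within 500 bp, 26.1% when an ATAC peak within 500 bp counted and 46.8% with feature lists at a -log10 p of at least 20. The share with a Setd8-LKO CTCF peak was 8.49% at 50% overlap, 3.56% and 4.01% with no peak within 500 and 2000 bp, 6.84% at a -log10 p of at least 50, 5.51% for a feature within 500 bp and 2.56% for one at the summit. For Smc3 it was 17.2% at 50% overlap, 6.20% and 15.4% at a -log10 p of at least 20 and 50, 10.7% within 500 bp and 4.77% at the summit. Lamin A/C came to 0.66% with no peak within 2000 bp, and H4K20me3 to 2.24% at 50% overlap, 3.64% with no peak within 2000 bp and 4.29% at a -log10 p of at least 50. The promoter share was 37.4% for a wider promoter window and 15.7% for one of 500 bp. The cause of these shifts was not tested.

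In windows of 50 bp on each side of the H3K27ac summit, which hold fewer bases, the shares were 1.15% (FOXA), 3.14% (C/EBP), 0.016% and 0.11% (HNF4A words), 2.69% (STAT5), 0.24% (ONECUT), 6.23% (AGGTCA), 2.84% (AP-1), 1.01% (CTCF), 0.096% (E2F), 0 (NRF1) and 0.19% (ETS). At the middle of the ATAC region, in windows added after the data were seen, they were 4.35% (FOXA), 8.44% (C/EBP), 5.63% (STAT5) and 2.39% (AP-1).

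Of listed genes with a lost peak, 343 of 443 (77.4%) were lower when no Setd8-LKO peak could lie within 2000 bp, against 540 of 672 (80.4%), so that fewer genes were counted and the share hardly moved. With DESeq2's size factors 29 were higher, against 104. Replicate numbers did not pair the RNA libraries (correlations -0.152 to 0.068 and -0.434 to 0.114), and with the number as a replicate block 2860 genes changed in Setd8-LKO, 479 of those with a lost peak were lower and 89 higher, 323 changed in wild type + TCPOBOP, and the falls of Got1, Scp2 and Alb in Setd8-LKO and, in wild type + TCPOBOP, the changes of Hsd3b5, Gls2, Etnppl, Got1, Hsd3b2, Sucnr1, Adipor2, Gm31583 and Cyp1a2 no longer passed. The wild type + TCPOBOP count of 523 became 275 with TMM and 280 with DESeq2's size factors, and Nceh1 there turned from 1.13 to -0.11 and -0.019. Leaving out 1 library gave 3065 to 3431 changed genes in Setd8-LKO, 446 to 528 in wild type + TCPOBOP, and 494 to 526 lower and 95 to 108 higher genes with a lost peak, while Mup20 passed without Setd8-LKO library 3 (-1.86). DESeq2 called 3657 and 677 genes. With 1 list per condition, peaks near the calling level cannot be placed against replicate error.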
